A study of Mus musculus with 4 samples.

Results

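The 9 enzymes described here carry carbon from glycolysis through serine into the folate cycle. They were taken by gene symbol, as a list drawn up when earlier results of these data were known: *Phgdh*, *Psat1* and *Psph* for serine synthesis, *Shmt1*, *Mthfd1* and *Tyms* for the cytosolic folate steps, and *Shmt2*, *Mthfd2* and *Mthfd1l* for the mitochondrial steps. All 9 were found among the 39179 genes listed for each library, and all 9 passed the filter on low counts. The libraries came from B16F1, an established mouse melanoma cell line. In the control group the parental cells were sequenced as 2 libraries, with the replicate numbers 1 and 3. The other group were tumor repopulating cells (TRCs), B16F1 cells recovered from culture in soft 3D fibrin gels on the fifth day, also sequenced as 2 libraries with the numbers 1 and 3. Pairs of values below give replicate 1 first and replicate 3 second. Both groups thus share 1 cell line, and the TRCs differ from the controls in the fibrin, in 3D growth and in the softness of the gel. The authors also report that most seeded cells die in it, so that TRCs are a surviving part of the line. These differences come together and cannot be told apart. Nothing in the labels says that the libraries of a group came from separate cultures, so p-values measure the spread between these libraries, which may be technical.

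Serine is built from a glycolytic intermediate by PHGDH, which oxidizes it, PSAT1, which adds the amino group, and PSPH, which removes the phosphate. Serine hydroxymethyltransferases then pass a carbon unit from serine to tetrahydrofolate and release glycine, SHMT1 in the cytosol and SHMT2 in mitochondria. In mitochondria MTHFD2 oxidizes the folate-bound unit and MTHFD1L releases it as formate, which leaves the organelle and is taken up again in the cytosol by MTHFD1. The cytosolic pool feeds purine synthesis, and it feeds TYMS, which makes the thymidine nucleotide needed for DNA replication. Several of the serine and mitochondrial enzymes are known targets of the stress-response transcription factor ATF4, while *Tyms* is known as a gene of the S phase of the cell cycle.

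Each library held between 35948295 and 43511554 counts on genes. A gene with 3 counts, the smallest number treated as detected, stands at 0.0689 to 0.0835 CPM (counts relative to library size). Reads carried no molecular identifiers, and this limit accounts for counting error alone. Every member had at least 651 counts in every library. Levels are given as CPM scaled with edgeR's TMM factors. The 7 melanocyte lineage markers checked were all expressed and summed to 18915 and 15712 CPM in the controls and to 23969 and 26669 CPM in TRCs. All 7 had a fitted level above the controls, and 1, the melanin enzyme gene *Dct*, rose past the threshold (log2 fold change 1.08, FDR = 0.000307 by edgeR's exact test). The part of this shift in the values of the enzymes was not tested. Of 7 leukocyte markers 5 had no count in any library and the list summed to at most 4.16 CPM, nearly all of it *Cd68*, and the endothelial, fibroblast and epithelial lists summed to at most 0.198, 2.09 and 1.83 CPM. The libraries of the control group stood apart from each other in 2 gene programs that touch the enzymes, described with the results below. The TRC libraries also differed from each other in the ATF4 response genes described there.

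Of the 9 enzymes 5 fell in TRCs, namely *Phgdh*, the 3 cytosolic folate genes and *Shmt2*, to levels between 2.0-fold and 2.33-fold lower. None rose, and the fitted values of the other 4 also lay below 0. The threshold was a Benjamini-Hochberg false discovery rate (FDR) under 0.05 in edgeR's exact test over 11483 genes, of which 7.05% were called lower and 8.81% higher in TRCs (15.9% either way). Among the 6303 genes with a mean level of at least 30.3 CPM, that of *Shmt1*, the least abundant member, 9.27% were called lower and 8.01% higher. Standard errors (SE) of log2 fold changes were taken from DESeq2. The median log2 fold change of the 9 enzymes was −0.997, against 0.0034 over all genes tested. For 6 of the 9 both TRC libraries lay below both control libraries, while 30.4% of all genes tested had this order. A lower level in such bulk libraries can be less RNA per cell or fewer cells that express the gene, which cannot be told apart. The plot of the level of each enzyme by library shows these values.

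**Figure D1:**
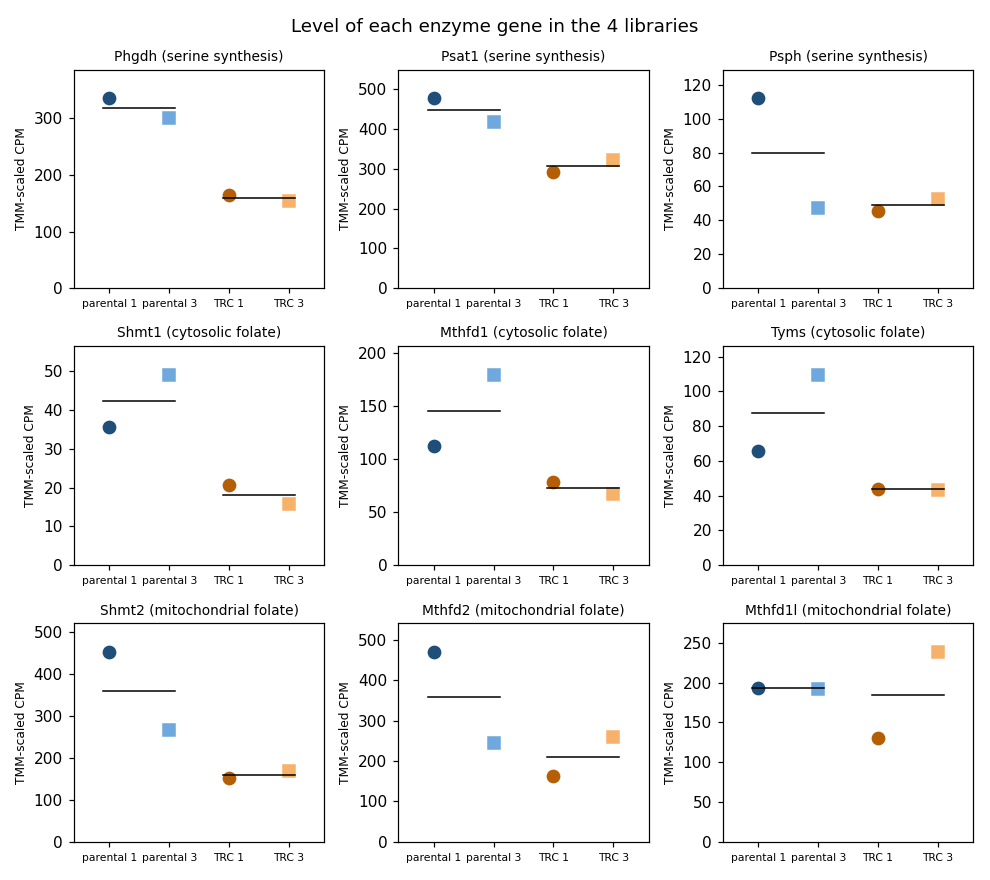
Each panel gives the TMM-scaled CPM of 1 enzyme gene (vertical axis, from 0) in the 2 parental and 2 TRC libraries (points), with the mean of each group as a line. The 3 cytosolic folate genes, *Phgdh*, *Psat1* and *Shmt2* have both TRC points below both parental points, while parental library 1 stands alone in *Psph*, at 112 CPM against 45.4 to 52.7 CPM in the other 3 libraries.

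Among the serine synthesis genes, *Phgdh*, the gene of the committing step, had the most even difference. It stood at 336 and 300.3 CPM in the controls and at 164 and 155 CPM in TRCs. The TRC libraries thus held about equal levels, well apart from the controls, with a log2 fold change of −0.997 (SE 0.19, FDR = 0.000335), or 2.0-fold lower. *Phgdh* (ENSMUSG00000053398) lies on the minus strand of chromosome 3 (chr3:98313170-98339990, GRCm38). With each library left out in turn its log2 fold change ranged from −1.08 to −0.91 and the FDR stayed at or below 0.0281. Of its longest transcript, 89.5% matched transcripts of 14 other annotated genes, mostly pseudogenes, at 95% identity or more over at least 101 bases, so its counts are uncertain. Alignments that were not unique were given to no gene. They made up 15.2% and 17.1% of alignments in the controls and 18.3% and 25.2% in TRC replicates 1 and 3, and their part in the *Phgdh* difference was not tested.

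*Psat1* (ENSMUSG00000024640, chr19:15904678-15947337, minus strand), the aminotransferase gene, stood at 478 and 417 CPM in the controls and at 291 and 321 CPM in TRCs. Both TRC libraries lay below both controls, but the log2 fold change of −0.55 (SE 0.19) did not pass the exact test (FDR = 0.09), and the unadjusted 95% interval of the ratio of TRC to control from DESeq2's standard error was 0.526 to 0.89. DESeq2's Wald test gave an FDR of 0.0326. *Psph* (ENSMUSG00000029446, chr5:129765558-129787449, minus strand), the phosphatase gene, stood at 112 and 47.2 CPM in the controls and at 45.4 and 52.7 CPM in TRCs. Control replicate 1 alone was high, and control replicate 3 lay between the TRC libraries. The log2 fold change was −0.70 (SE 0.36, FDR = 0.146, 95% interval of the ratio 0.377 to 1.004). Without control replicate 1 it was 0.056 (FDR = 0.933), and without control replicate 3 it was −1.19 (FDR = 0.000188), so a single library decides the value. Of the longest *Psph* transcript 26.1% matches transcripts of *Cct6a* on the opposite strand, and the strand setting of the counting is not given in the sources used here. *Cct6a*, a chaperonin subunit gene, stood at 324 and 409.7 CPM in the controls, the reverse of the order in *Psph*, and at 217 and 225 CPM in TRCs.

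The 3 cytosolic folate genes fell together, and in each the controls differed in the same order. *Shmt1* (ENSMUSG00000020534, chr11:60788104-60811718, minus strand), the cytosolic enzyme that takes the carbon unit from serine, stood at 35.7 and 49.1 CPM in the controls and at 20.7 and 15.6 CPM in TRCs. The log2 fold change was −1.22 (SE 0.28, FDR = 0.000407), or 2.33-fold lower. Of its longest transcript 6.44% matches *Smcr8* on the opposite strand, which had more counts than *Shmt1* and was also lower in TRCs, with 116 and 101 CPM in the controls and 74.9 and 61.9 CPM in TRCs. With the strand setting of the counting not given, the part of *Smcr8* reads in the *Shmt1* values was not tested. *Mthfd1* (ENSMUSG00000021048, chr12:76255298-76319803, plus strand), whose trifunctional product interconverts the folate-bound units, stood at 112 and 179 CPM in the controls and at 78.4 and 67.1 CPM in TRCs. The difference was −1.003 on the log2 scale (SE 0.27, FDR = 0.00265). For *Tyms* (ENSMUSG00000025747, chr5:30058202-30073617, minus strand), the thymidylate synthase gene, the controls held 65.8 and 109 CPM and the TRCs 43.97 and 43.0 CPM, which differed by −1.01 on the log2 scale (SE 0.28, FDR = 0.00236). Transcripts of other genes matched 11.5% of the longest *Tyms* transcript and up to 34.5% of another, on both strands. Over all *Tyms* transcripts they belonged to 32 genes, the pseudogene *Tyms-ps* among them, and their part in the *Tyms* values was not tested. No TRC library overlapped a control library in any of the 3 genes, and the TRC libraries were closer to each other than the controls were in each.

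How far the cytosolic genes fell depended on the control library used. Control replicate 3 was higher than control replicate 1 in all 3, by 0.45, 0.68 and 0.73 on the log2 scale for *Shmt1*, *Mthfd1* and *Tyms*. Without control replicate 3 the log2 fold changes were −0.98, −0.63 and −0.60, with FDR values of 0.0453, 0.128 and 0.157. Without control replicate 1 they were −1.43, −1.30 and −1.33. All 3 directions held, and the size differed by more than 1.5 times for *Mthfd1* and *Tyms*. The calls also depended on which TRC library was left out. Without TRC replicate 3, *Shmt1*, *Mthfd1* and *Tyms* all lost their calls. Without TRC replicate 1, *Shmt1* and *Mthfd1* kept theirs and *Tyms* did not.

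The mitochondrial genes did not move as a block. *Shmt2* (ENSMUSG00000025403, chr10:127517123-127522444, minus strand), the mitochondrial serine hydroxymethyltransferase gene, stood at 453 and 268 CPM in the controls and at 153 and 168 CPM in TRCs. Its TRC libraries lay close together and below both controls, although the controls lay far apart, with a log2 fold change of −1.17 (SE 0.27, FDR = 0.000565), or 2.25-fold lower. With each library left out the log2 fold change ranged from −1.50 to −0.74, the weakest without control replicate 1, and the FDR stayed at or below 0.0465.

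*Mthfd2* (ENSMUSG00000005667, chr6:83305691-83325908, minus strand), the gene of the next mitochondrial step, stood at 471 and 245 CPM in the controls and at 162 and 259 CPM in TRCs. The groups overlapped, since TRC replicate 3 lay above control replicate 3. The log2 fold change of −0.76 (SE 0.33, FDR = 0.0929, 95% interval of the ratio 0.375 to 0.925) became −0.22 (FDR = 0.692) without control replicate 1 and −1.16 (FDR = 0.00697) without control replicate 3. *Mthfd1l* (ENSMUSG00000040675, chr10:3973118-4167081, plus strand), the gene of the formate-releasing step, stood at 194 and 192 CPM in the controls, which were nearly equal, and at 130 and 239 CPM in TRCs, 1 below and 1 above both controls. Its log2 fold change was −0.066 (SE 0.29, FDR = 0.913), and the 95% interval of the ratio, 0.644 to 1.42, does not show that the groups were alike. Without TRC replicate 1 the sign turned, with a log2 value of 0.29. The plot of each TRC library against each control library shows these differences pair by pair.

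**Figure D2:**
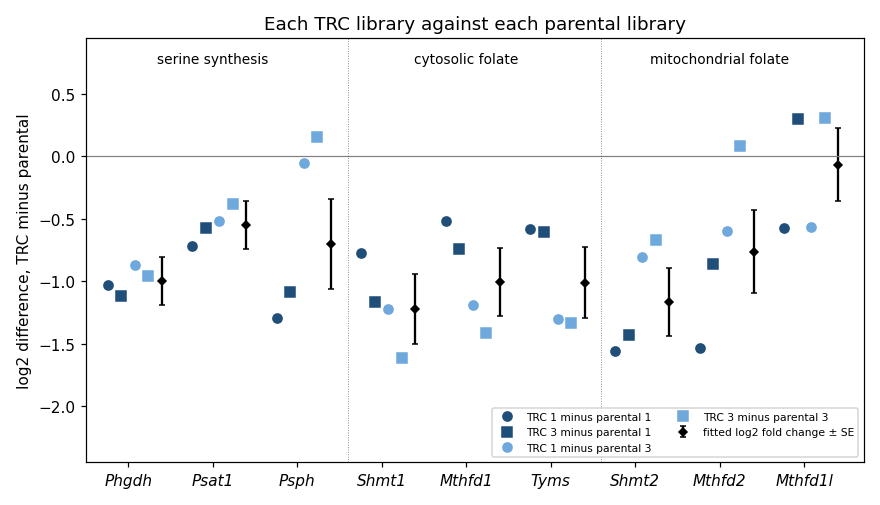
For each enzyme gene the vertical axis gives the log2 difference of CPM plus 0.5 between 1 TRC and 1 parental library (circles TRC 1, squares TRC 3; dark blue against parental 1, light blue against parental 3), and the black diamond the fitted log2 fold change with its DESeq2 standard error. All 4 differences are below 0 for *Phgdh*, *Psat1*, *Shmt1*, *Mthfd1*, *Tyms* and *Shmt2*, and at least 1 is above 0 for *Psph*, *Mthfd2* and *Mthfd1l*.

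Summed by branch, the cytosolic folate genes held 214 and 338 CPM in the controls and 143 and 126 CPM in TRCs. The mitochondrial genes held 1117 and 705 CPM in the controls and 446 and 666 CPM in TRCs, and the serine synthesis genes 925 and 764 against 500.3 and 528 CPM. In each branch both TRC sums lay below both control sums, but the cytosolic sum was higher in control replicate 3 and the other sums in control replicate 1. Among single genes tested 30.4% had this order. The mitochondrial order rested on *Shmt2*. TRC replicate 3 lay above control replicate 3 in *Mthfd2*, at 259 against 245 CPM, and in *Mthfd1l*, at 239 against 192 CPM.

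The ratio of a mitochondrial to a cytosolic enzyme within a library does not depend on how libraries are scaled. For *Shmt2* to *Shmt1* the ratio of counts was 12.7 and 5.46 in the controls and 7.40 and 10.7 in TRCs. Both TRC values thus lay between the controls, and the mean log2 ratio differed by 0.099 between the groups (SD 0.86 in controls and 0.38 in TRCs, n = 2 each, exact permutation p = 1, two-sided). The *Mthfd2* to *Mthfd1* ratio showed the same order, with 4.20 and 1.37 in the controls and 2.07 and 3.87 in TRCs, a difference of 0.24 in the log2 ratio (exact permutation p = 1, two-sided). For *Mthfd1l* to *Mthfd1* the ratios were 1.73 and 1.07 in the controls and 1.66 and 3.56 in TRCs, a difference of 0.84 (exact permutation p = 0.667, two-sided). In 2 against 2 libraries the smallest p this test can give is 0.333. In none of the 3 ratios did the groups separate, and with each library left out the *Shmt2* to *Shmt1* difference ranged from −0.51 to 0.71. The last 2 ratios share *Mthfd1*, and after Benjamini-Hochberg adjustment over the 3 ratios each exact permutation p was 1.

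**Figure D3:**
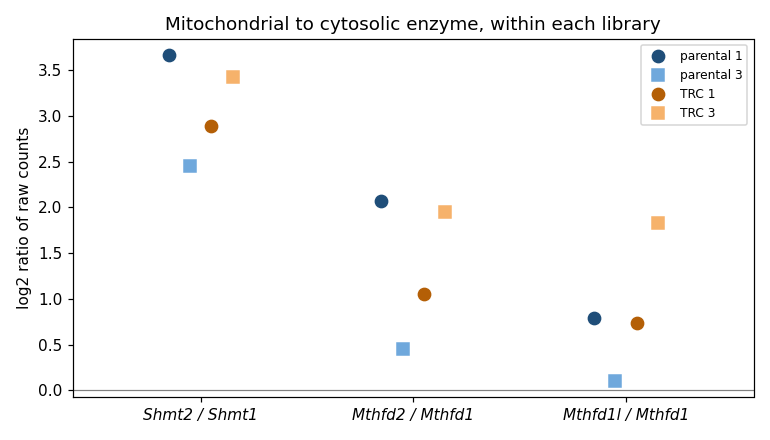
The vertical axis gives the log2 ratio of raw counts of a mitochondrial to a cytosolic enzyme gene within each of the 4 libraries (points). In each pair parental library 3 has the lowest ratio, and the 2 TRC libraries overlap the parental range in the first 2 pairs, while TRC library 3 is highest for *Mthfd1l* to *Mthfd1*.

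The order of the genes by level was compared only after division by exon length, as TPM (counts per base of exon, scaled to a constant total) on the summed exon length of each gene, which counts exons of all annotated transcripts. In the controls the means were 429 TPM for *Phgdh*, 389 for *Shmt2*, 353 for *Psat1* and 345 for *Mthfd2*, and neighbours in this order overlapped between libraries. *Mthfd1l* followed with 146 TPM and *Mthfd1* with 110.1 TPM, without overlap between the pair. *Psph*, *Tyms* and *Shmt1* were lowest, with 61.8, 48.3 and 36.6 TPM and overlapping neighbours. In TRCs *Psat1* led with 231 TPM, above *Phgdh* with 207 TPM without overlap, followed by *Mthfd2* with 193 and *Shmt2* with 166 TPM, each overlapping its neighbour, and *Mthfd1l* with 132 TPM. *Mthfd1*, *Psph*, *Tyms* and *Shmt1* kept their places at the end with 53.0, 36.4, 23.1 and 15.2 TPM. *Shmt1* had the lowest mean in both groups, although in control replicate 3 *Psph*, at 36.5 TPM, lay below *Shmt1*, at 42.3 TPM. *Shmt1* was 6.82 to 15.8 times below *Shmt2* in TPM in single libraries.

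The controls also differed in 2 lists of genes outside the 9, which were chosen with earlier results of these data known. Control replicate 1 was higher than control replicate 3 in *Psph*, *Mthfd2* and *Shmt2* by 1.24, 0.94 and 0.76 on the log2 scale, and by at most 0.20 in *Psat1*, *Phgdh* and *Mthfd1l*, where the SD of this difference over all genes tested was 0.45. In the list of 11 ATF4 response genes all 11 were higher in control replicate 1, with a median difference of 1.77 (log2). Over all genes tested the median of this difference was −0.0042. The list summed to 3458 and 1481 CPM in the controls and to 1304 and 1642 CPM in TRCs. The TRC libraries differed as well, with 9 of the 11 genes higher in TRC replicate 3. The median log2 difference of TRC replicate 1 minus 3 was −0.59, against −0.00068 over all genes tested. By the same measure *Mthfd1l*, *Mthfd2* and *Shmt2* had −0.87, −0.67 and −0.13, and *Psph*, *Psat1* and *Phgdh* −0.21, −0.14 and 0.084. *Atf4*, the transcription factor gene itself, stood at 837 and 465 CPM in the controls and at 299 and 492 CPM in TRCs (log2 fold change −0.72, FDR = 0.110), and *Slc7a5*, an amino acid transporter gene, at 465 and 273 CPM against 331 and 318 CPM (−0.19, FDR = 0.709). Against control replicate 3 alone the median difference of the list was 0.17 and 0.22 in the TRC libraries. Among all genes tested 7.05% were called lower. Of the 11 genes 2 fell: *Slc7a11*, the cystine transporter gene, from 330.0 and 182 CPM to 10.3 and 33.7 CPM (log2 fold change −3.54, FDR = 6.09e-11, with a range from −4.65 without TRC replicate 3 to −2.94 without TRC replicate 1), and *Atf5*, another factor of the response, from 230 and 35.9 CPM to 19.0 and 38.7 CPM (−2.21, FDR = 0.00492), with overlapping groups. *Atf5* had −0.32 (FDR = 0.631) without control replicate 1 and did not pass edgeR's quasi-likelihood test or DESeq2's Wald test on all libraries. With each library left out, the log2 fold change of *Atf4* ranged from −1.13 to −0.23 and that of *Slc7a5* from −0.52 to 0.25. The part of these differences between libraries in the values of the serine and mitochondrial genes was not tested.

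The second list held 15 genes of S phase, and there the order of the controls was the opposite. All 15 were lower in control replicate 1 than in control replicate 3, with a median log2 difference of −0.67, beside −0.45 to −0.73 for the 3 cytosolic folate genes. The median over all genes tested was −0.0042. The list summed to 3150 and 5018 CPM in the controls and to 2436 and 2385 CPM in TRCs, and 8 of its genes fell, none rose, and the median log2 fold change was −0.85. Among all genes tested 7.05% were called lower. *Cdc6*, which loads the replicative helicase, fell from 46.8 and 90.3 CPM to 26.4 and 29.1 CPM (log2 fold change −1.30, FDR = 0.000394). The helicase subunit genes *Mcm3*, *Mcm4*, *Mcm6*, *Mcm2* and *Mcm5* fell with log2 fold changes of −1.06, −0.97, −0.91, −0.86 and −0.90. *Pcna*, the sliding clamp gene, had −0.64 (FDR = 0.0804) and *Rrm1*, a ribonucleotide reductase gene, −0.30 (FDR = 0.546). Without control replicate 1, *Cdc6*, *Mcm3*, *Mcm4*, *Mcm6*, *Mcm2* and *Mcm5* had log2 fold changes of −1.70, −1.39, −1.30, −1.18, −1.09 and −1.27. Without control replicate 3 these were −0.76, −0.61, −0.55, −0.58, −0.59 and −0.41, so their size depended on the control library used. The quasi-likelihood test on all libraries called 2 of the 15 lower, *Cdc6* and *Mcm3*, and 487 of all genes tested. The part of the difference between the controls in the values of the cytosolic folate genes was not tested.

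**Figure D4:**
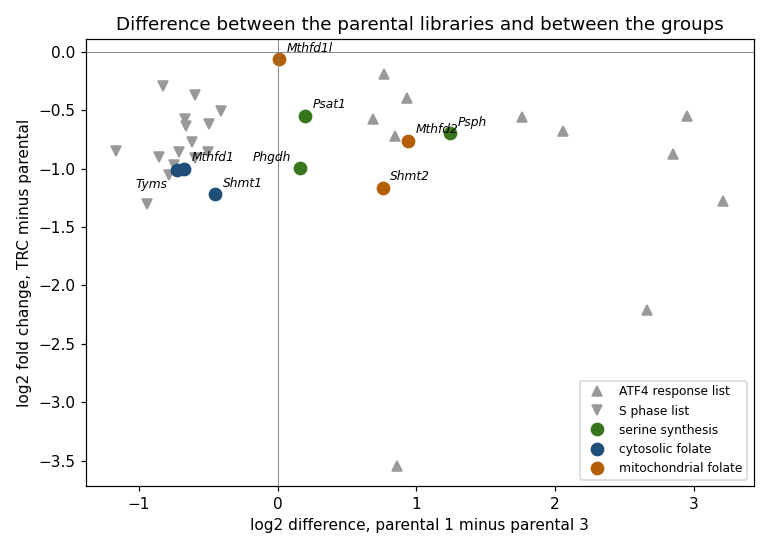
Each point is a gene, with the log2 difference of CPM plus 0.5 between parental libraries 1 and 3 on the horizontal axis and the log2 fold change between TRCs and parental cells on the vertical axis, which use the same parental libraries. The 3 cytosolic folate genes lie left of 0 among the S phase genes, *Psph*, *Mthfd2* and *Shmt2* lie right of 0, and *Phgdh*, *Psat1* and *Mthfd1l* lie near 0.

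Likeness of pattern was measured as the Euclidean distance between log2 values centred on their mean over the 4 libraries. The closest pair of enzymes was *Mthfd1* and *Tyms*, at a distance of 0.14, and *Shmt1* was nearest to *Mthfd1* at 0.30. *Psph* and *Mthfd2* were nearest to each other at 0.42, and *Shmt2* and *Phgdh* at 0.47. *Mthfd1l* was the most remote, with *Psat1* at 0.68. Of all genes tested, those nearest to *Phgdh* were *Dctd* at 0.052, *Wdr74* at 0.068 and *Rpp40* at 0.069. *Dctd*, the deoxycytidylate deaminase gene that supplies the substrate of TYMS, stood at 35.5 and 32.3 CPM in the controls and at 17.8 and 15.9 CPM in TRCs. Over 4 libraries such distances only describe these libraries.

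Promoter sequences are shown for the 5 enzymes that fell, so that the starts of the genes that moved can be compared. Each is the 120 bases before the start of the gene's transcript in RefSeq (GRCm38.p6), read 5′ to 3′ on the strand of the gene, with the searched motifs in capitals. The *Mthfd1* stretch also lies in an exon of the divergent noncoding gene *Gm47525*, and the last 21 bases of the *Phgdh* stretch lie in a *Phgdh* exon of the GENCODE annotation. The *Shmt1* stretch lies inside the gene span given above, in an intron of a longer noncoding *Shmt1* transcript that starts further upstream in GENCODE.
*Phgdh*, chr3:98339970-98340089, minus strand: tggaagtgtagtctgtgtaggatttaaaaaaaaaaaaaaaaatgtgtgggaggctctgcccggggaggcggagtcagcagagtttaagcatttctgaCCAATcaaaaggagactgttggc
*Shmt1*, chr11:60811266-60811385, minus strand: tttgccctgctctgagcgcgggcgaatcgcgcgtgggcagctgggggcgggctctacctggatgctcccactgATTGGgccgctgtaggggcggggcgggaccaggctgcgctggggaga
*Mthfd1*, chr12:76255112-76255231, plus strand: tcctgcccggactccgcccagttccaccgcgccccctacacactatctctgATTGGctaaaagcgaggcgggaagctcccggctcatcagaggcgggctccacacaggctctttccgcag
*Tyms*, chr5:30073626-30073745, minus strand: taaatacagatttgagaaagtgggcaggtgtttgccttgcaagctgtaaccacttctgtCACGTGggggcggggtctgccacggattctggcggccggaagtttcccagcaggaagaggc
*Shmt2*, chr10:127522445-127522564, minus strand: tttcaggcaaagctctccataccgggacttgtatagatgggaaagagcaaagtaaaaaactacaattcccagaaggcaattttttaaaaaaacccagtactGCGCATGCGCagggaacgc

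The capitals mark a CCAAT box (CCAAT, or ATTGG on the other strand) in *Phgdh*, *Shmt1* and *Mthfd1*, an E-box (CACGTG) in *Tyms* and the palindromic NRF1 motif in *Shmt2*. In windows of 300 bases, from 250 before to 50 after the start, a CCAAT box on either strand was found in 6 of the 10 windows of the 9 enzymes, *Psat1* having 2 windows, and in 37.4% of all 32851 windows. The E-box was in 1 of 10 windows and in 7.15% of all, and the NRF1 motif in 1 of 10 and in 0.971% of all. The ATF4 element TGATGNAA was in 0 of 10 windows, against 3.97% of all. A loose E2F pattern, TTTNNCGC with any base at N, was in 3 of 10, against 5.17% of all. These were in *Psph*, *Tyms* and *Shmt2*, after the start in the last pair. Their matches were TTTACCGC, TTTGTCGC and TTTCTCGC, none with C or G at both N positions. Both strands were searched, and the motifs do not overlap each other in the sequences shown. They are matches of letters, not sites of binding, and elements outside these windows, introns included, were not searched.

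Beyond the 9 enzymes, 47 further genes of serine, folate and methionine metabolism were listed by role, of which 37 passed the filter. Of these, 7 fell and 1 rose, and their median log2 fold change was −0.21. Over all genes tested 7.05% were called lower and 8.81% higher, the shares to set beside the count of each list below. edgeR's quasi-likelihood test called 3 of the 8, *Cth* and *Mat2a* among them. Among the other genes of the mitochondrial folate pathway and glycine cleavage, 1 of 11 tested fell. It was *Mthfd2l*, the paralog of *Mthfd2*, from 2.72 and 3.97 CPM to 0.433 and 1.20 CPM (log2 fold change −2.03, FDR = 0.00477), a low level that lost its call without control replicate 3 or TRC replicate 1. *Dld*, the shared dehydrogenase of glycine cleavage, had −0.33 (FDR = 0.333) and *Sfxn1*, the mitochondrial serine carrier, −0.091 (FDR = 0.842). *Gldc*, the glycine decarboxylase, had 1 count in all libraries together. *Aldh1l2*, a mitochondrial formyltetrahydrofolate dehydrogenase gene chosen after its values were seen, stood at 148 and 14.5 CPM in the controls and at 59.9 and 103 CPM in TRCs. The controls differed by 3.30 on the log2 scale and both TRC libraries lay between them. The log2 fold change was 0.0025 with all libraries, 2.49 (FDR = 9.53e-09) without control replicate 1 and −0.86 (FDR = 0.0735) without control replicate 3.

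Of 8 other cytosolic folate and folate uptake genes tested, 2 fell, among them *Fpgs*. *Fpgs*, which keeps folates in the cell by adding glutamates, fell from 22.9 and 31.1 CPM to 13.6 and 15.8 CPM (−0.88, FDR = 0.0334). *Ggh*, which removes these glutamates, stood at 26.4 and 16.8 CPM in the controls and at 38.4 and 32.0 CPM in TRCs (0.70, FDR = 0.0841). *Ftcd*, *Folr1* and *Folr2* were too low to be tested. *Fpgs* passed edgeR's exact test only without control replicate 1 among the libraries left out, with an FDR of 0.328 without control replicate 3, 0.280 without TRC replicate 1 and 0.141 without TRC replicate 3, and it did not pass the quasi-likelihood test (FDR = 0.0627).

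In the methionine cycle and transsulfuration 3 of 9 genes tested fell. *Cth*, the last enzyme gene of cysteine synthesis, fell from 22.9 and 15.6 CPM to 9.57 and 5.77 CPM (log2 fold change −1.33, FDR = 0.00723). *Mat2a*, which makes the methyl donor S-adenosylmethionine, fell from 527 and 569 CPM to 348 and 296 CPM (−0.77, FDR = 0.0107). *Ahcy*, the S-adenosylhomocysteine hydrolase gene, fell from 90.8 and 148 CPM to 68.3 and 70.3 CPM (−0.78, FDR = 0.023). The related genes *Ahcyl1* and *Ahcyl2* had 0.39 and 0.36 (FDR = 0.243 and 0.288). *Cth* had −1.03 (FDR = 0.0988) without control replicate 1, and over the libraries left out it ranged from −1.76 without TRC replicate 1 to −1.02 without TRC replicate 3. *Ahcy* had −1.09 without control replicate 1, −0.39 (FDR = 0.433) without control replicate 3 and −0.78 (FDR = 0.203) without TRC replicate 1. *Cth* alone passed without control replicate 3, and no gene of the list passed edgeR's exact test without TRC replicate 3, with 3 lower at an unadjusted p under 0.05.

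Among 9 tested genes of serine uptake and other uses of serine, 1 fell and 1 rose. *Slc38a2*, an amino acid transporter gene, fell from 706 and 954 CPM to 545 and 418 CPM (log2 fold change −0.79, FDR = 0.0182). *Srr*, the serine racemase gene, rose from 13.9 and 8.81 CPM to 21.9 and 23.2 CPM (0.99, FDR = 0.0291). *Slc38a2* lost its call without control replicate 3 or TRC replicate 3, and *Srr* kept its call only without control replicate 1 among the libraries left out. The transporter gene *Slc1a5* stood at 162 and 76.8 CPM in the controls and at 91.6 and 64.3 CPM in TRCs (−0.62, FDR = 0.199), and *Sptlc2*, which uses serine for sphingolipids, had 0.17 (FDR = 0.686). *Slc1a4*, a serine transporter gene chosen after its values were seen, stood at 129 and 41.9 CPM in the controls and at 24.9 and 51.9 CPM in TRCs (−1.16, FDR = 0.0581), again with control replicate 1 alone high.

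**Figure D5:**
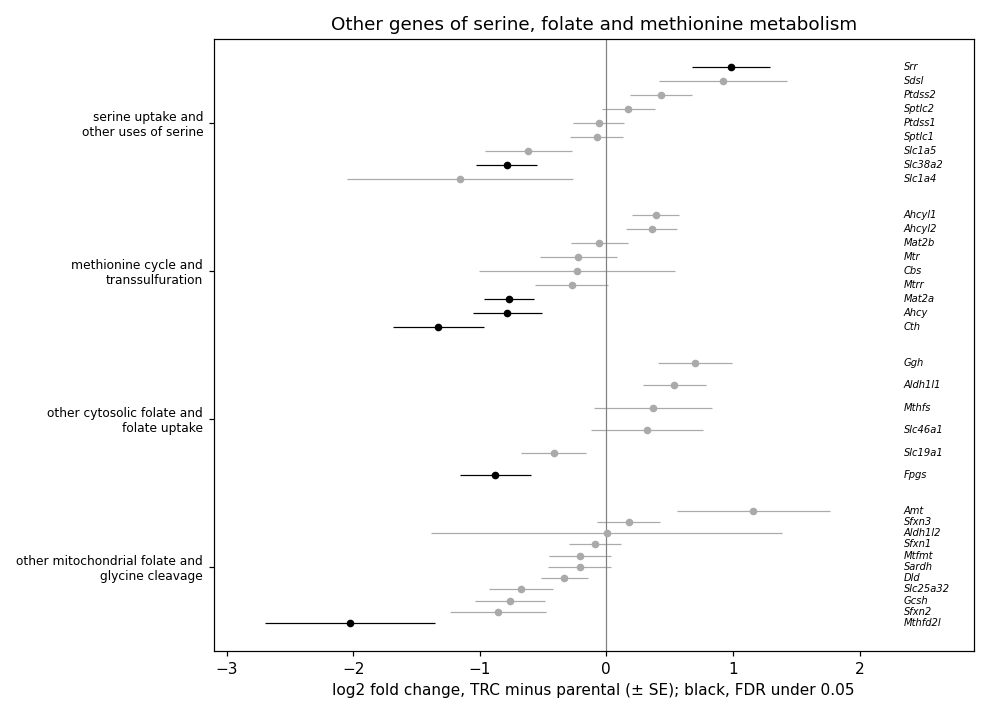
The horizontal axis gives the log2 fold change between TRCs and parental cells with its DESeq2 standard error for 35 of the further genes tested, grouped by role and ordered by value. Black marks an FDR under 0.05: 6 of the genes plotted lie below 0 and 1, *Srr*, lies above.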

How the data were processed

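RNA-seq was analysed for 4 libraries of B16F1 cells, 2 parental and 2 TRC. Per the submitters' processing notes, the authors trimmed reads with Trimmomatic 0.35 and aligned them to GRCm38 with TopHat2 2.1.0. The authors counted reads on Ensembl genes with htseq-count and deposited raw counts, with no normalization. RNA was polyA RNA in stranded single-end libraries. The strand setting and mode of counting are not given in the sources used here. The rows that name no gene were removed before library sizes were computed. Alignments on no gene made up 2.95% to 4.25% of all, ambiguous ones 0.825% to 0.955% and those not unique 15.2% to 25.2%.

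Here, a gene was kept with at least 1 CPM in at least 2 libraries, which left 11483 genes. After TMM scaling, groups were compared with the exact test of edgeR 4.0.16 in R 4.3.3 on common, then tagwise dispersions, and p-values were adjusted after Benjamini and Hochberg across the 11483 genes. Standard errors came from DESeq2 1.42.0. Log2 differences between libraries used CPM plus 0.5. Symbols, positions and exon lengths came from GENCODE M21 on GRCm38, where 37607 of the 39179 identifiers were found. Promoters came from RefSeq. Near-identical transcripts were found with blastn. The fits were also run on simulated data with a common dispersion for all genes, which lacks the uneven spread seen between the controls. Plots were drawn with matplotlib 3.10.9.

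The members, lists and motifs were chosen with earlier results of these data known. Named genes are the 9 members and, per further list, up to 6 called genes with the smallest FDR and 2 abundant genes not called, with the exceptions named as such. Of the cytosolic folate and uptake list, 2 genes are counted but not reported here. Alternatives were other scalings, filters, dispersions, the quasi-likelihood test of edgeR, alone and with a replicate block, DESeq2's Wald test and each library left out. A dispersion shrunk toward the common value was added after seeing the data. A fit without a library has 1 library in a group, which is assumed to vary like the other group. Intervals and floors cover counting error only, except those from standard errors.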

Additional observations from a re-analysis of the deposited data

How the results depend on the processing

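The direction of *Phgdh*, *Psat1*, *Shmt1*, *Mthfd1*, *Tyms*, *Shmt2* and *Mthfd2* held under all 10 alternative tests, scalings and filters and without each library, and *Phgdh* and *Shmt2* stayed under an FDR of 0.05 in all of these. With each library left out, signs turned for *Psph* (−1.19 to 0.056), *Slc1a5* (−1.06 to 0.023) and *Slc7a5* (−0.52 to 0.25) without control replicate 1, for *Sfxn1* (−0.20 to 0.024) and *Rrm1* (−0.65 to 0.18) without control replicate 3, for *Mthfd1l* (−0.58 to 0.29) and *Sptlc2* (−0.0062 to 0.31) without TRC replicate 1, and for *Aldh1l2* (−0.86 to 2.49) without replicate 3 of either group. *Aldh1l2* also turned with library size only (−0.068) and without a filter (−0.034). *Aldh1l2* had a log2 fold change of 0.0025 with all libraries, near 0.

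With all libraries 1012 genes were called higher and 810 lower. edgeR's quasi-likelihood test gave 567 and 487, with the same 5 enzymes below the threshold. With the replicate block it gave 477 and 308 genes and 2 enzymes, *Phgdh* and *Shmt2* (FDR = 0.0293 and 0.0499). The FDR of *Shmt1*, *Tyms* and *Mthfd1* was then 0.0506, 0.0578 and 0.0687. The labels do not say that a number marks libraries made together, so the block rests on a number only. Deviations of same-numbered libraries correlated with r = 0.027 across genes, a single value that cannot decide whether they were made together. DESeq2's Wald test gave 1090 genes higher and 946 lower, and it called 6 enzymes lower, *Psat1* added. With each library left out, between 500 and 1078 genes were called higher, 269 to 854 lower, and 2 to 5 enzymes lower, the fewest without TRC replicate 3. Without control replicate 3 the 5 were *Phgdh*, *Shmt1*, *Shmt2*, *Psph* and *Mthfd2*, so *Psph* and *Mthfd2* stood in place of *Mthfd1* and *Tyms*, while 0 enzymes were called higher in any setting. The difference in the log2 ratio ranged from −0.51 to 0.71 for *Shmt2* to *Shmt1*, from −0.57 to 1.05 for *Mthfd2* to *Mthfd1* and from 0.29 to 1.39 for *Mthfd1l* to *Mthfd1*. The causes were not tested. With at least 651 counts in every library, no enzyme was near the limit of detection.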
